A study of Homo sapiens with 4 samples.

Results

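ADAMTS genes encode secreted metalloproteinases that cut proteins of the extracellular matrix, and 10 of them were followed here in HGC-27 cells with and without a targeted RUNX3 gene. The members were the rows of the count tables whose symbol is ADAMTS1, ADAMTS2, ADAMTS3, ADAMTS4, ADAMTS5, ADAMTS9, ADAMTS10, ADAMTS12, ADAMTS14 or ADAMTS19, so 10 of 25559 gene symbols, and each symbol was found in all 4 tables. They were set apart by substrate class into 4 aggrecanases (ADAMTS1, ADAMTS4, ADAMTS5 and ADAMTS9), 3 procollagen N-proteinases (ADAMTS2, ADAMTS3 and ADAMTS14) and 3 other members (ADAMTS10, ADAMTS12 and ADAMTS19). HGC-27 cells descend from a poorly differentiated human gastric carcinoma and grow as an established line, and poly(A) RNA was sequenced from 2 libraries of wildtype (wt) cells and 2 libraries of RUNX3 knockout cells (labelled RUNX3KO, here RUNX3 KO). By the study's methods the knockout was made with a lentiviral vector that carried Cas9 and a guide to exon 3 of RUNX3. Puromycin selection was followed by single-cell cloning, after which the study checked the deletion in both mRNA and protein. What the wt cells received, the number of clones, and whether the 2 libraries of a group came from separate cultures are not given in the sources used here, so p-values measure only the spread between these libraries, which may be technical, and the effect of RUNX3 loss cannot be told apart from differences between clones.

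As background, ADAMTS proteases are made as inactive precursors from which furin-like convertases remove a prodomain, and their thrombospondin repeats help them bind matrix. Aggrecanases cut the core proteins of aggrecan and versican, the large proteoglycans that hold water in the matrix and are tied to hyaluronan by link proteins. Procollagen N-proteinases remove the amino-terminal propeptide of fibrillar procollagens, a step that allows collagen fibrils to assemble. RUNX3 is a transcription factor of the Runt family that binds DNA at short motifs such as TGTGGT and TGCGGT.

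Each library held 11731401 to 12110876 reads counted on genes, and 12967 genes passed edgeR's filter on low counts. RUNX3 RNA was checked first here, and the study found no RUNX3 protein in the knockout by immunoblot. The transcript had 351 and 308 counts in wt cells against 225 and 185 after the knockout. The groups did not overlap, but it was still counted in both RUNX3 KO libraries. Its level went from 27.9 ± 2.57 to 17.2 ± 2.60 CPM (gene counts at a common TMM-normalized library size; SD, n = 2 per condition), or by -0.70 as log2 fold change (SE 0.0961, adjusted p = 1.43e-09). Every adjusted p, unless another tool is named, is from the quasi-likelihood test of edgeR and was corrected over all genes by the method of Benjamini and Hochberg. Without RUNX3 KO replicate 2 the value was -0.55 and lost its call (adjusted p = 0.0649). Replicates lay close to counting noise, since chi-square per degree of freedom was 1.22 between the wt libraries and 1.18 between those of RUNX3 KO, against 17.1 and 17.3 between libraries of the same number across conditions. Of 8 epithelial markers checked, 3 passed the filter (CDH1, KRT8 and MUC1), and EPCAM and KRT19 were at or near 0 in all 4 libraries. All 6 fibroblast markers passed it.

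To ask how the proteases differed between the conditions, all 12967 genes were fitted together and the 10 members were read from that fit. All 10 passed the filter and had at least 10 counts in every library. Of these, 7 fell and 3 rose in RUNX3 KO cells at an adjusted p under 0.05, with log2 fold changes from -2.43 for ADAMTS4 to 2.16 for ADAMTS12, and wt and RUNX3 KO libraries did not overlap for any of them. Among all genes tested, 24.4% were lower and 24.5% were higher by the same rule, 48.9% in all. The members had been chosen with earlier results of these data known, and of the 5 other ADAMTS proteases that passed the filter only ADAMTS7 was called, so nothing is read from the 10 of 10. By the criteria in the study's methods, which ask for a 2-fold change or more and p of 0.05 or less before adjustment, ADAMTS4, ADAMTS5, ADAMTS10 and ADAMTS14 were lower and ADAMTS12 was higher. Applied to the p-values of this edgeR fit, those criteria took 4.01% of all genes tested as lower and 2.11% as higher, 6.12% in all. The study itself, with another normalization, reported more genes in each direction. The median log2 fold change was -0.60 over the members and -0.0021 over all genes tested. In bulk RNA of this kind, fewer expressing cells and less RNA per cell cannot be told apart.

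**Figure D1:**
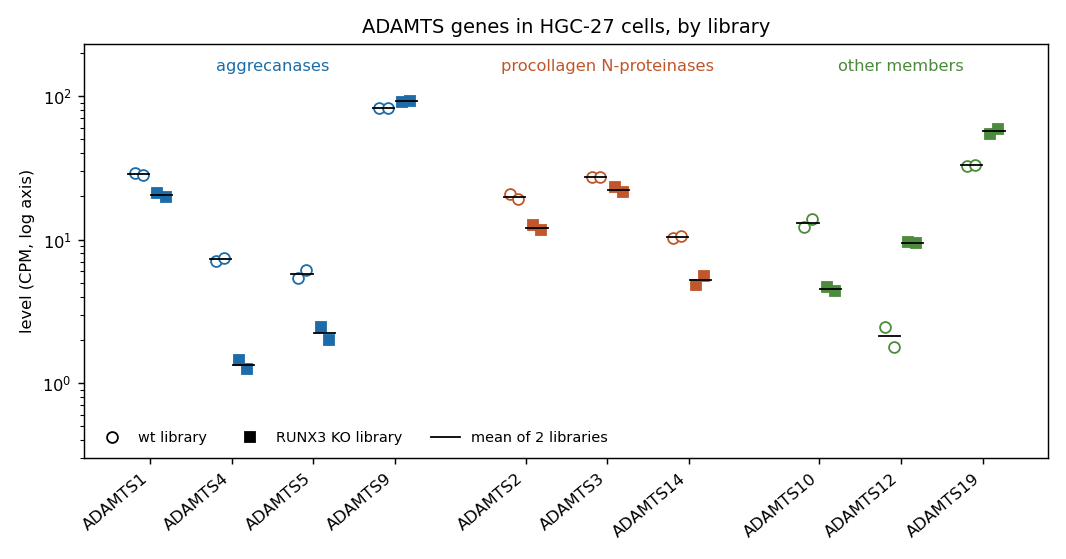
Level of each of the 10 ADAMTS genes in each library (CPM, log axis), grouped by substrate class, with open circles for wt libraries, filled squares for RUNX3 KO libraries and a line at the mean of the 2 libraries. For every gene both squares lie on one side of both circles, above them for ADAMTS9, ADAMTS12 and ADAMTS19 and below them for the other 7 genes.

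Among the aggrecanases, 3 of 4 fell and 1 rose, with a median log2 fold change of -0.93. ADAMTS4, one of the principal aggrecan-cleaving enzymes of cartilage, had 84 and 88 counts in wt cells and 17 and 15 in RUNX3 KO cells. Both knockout libraries thus lay far below both wt libraries. Its level went from 7.28 ± 0.242 to 1.34 ± 0.136 CPM (SD, n = 2 per condition), 5.39-fold lower, with a log2 fold change of -2.43 (SE 0.237, 95% interval -2.89 to -1.97, adjusted p = 2.20e-15). This was the largest fall of the 10 members and ranked 129 among all genes tested. ADAMTS5, the other principal aggrecanase, had 64 and 72 counts in wt cells and 29 and 24 in RUNX3 KO cells. It fell 2.58-fold, from 5.76 ± 0.481 to 2.22 ± 0.326 CPM (SD, n = 2 per condition), a log2 fold change of -1.37 (SE 0.223, 95% interval -1.81 to -0.93, adjusted p = 1.66e-07). Both genes were measured on fewer than 100 counts a library, and the intervals are correspondingly wide.

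ADAMTS1, which cuts aggrecan and versican and takes part in ovulation and vessel growth, had 342 and 334 counts in wt cells and 249 and 237 in RUNX3 KO cells. It fell 1.40-fold, from 28.6 ± 0.470 to 20.4 ± 0.977 CPM (SD, n = 2 per condition; log2 fold change -0.49, SE 0.0885, adjusted p = 1.89e-06). ADAMTS9, a versican-cleaving enzyme, was the exception in this class. Its 969 and 968 counts in wt cells lay below the 1072 and 1110 counts in RUNX3 KO cells, a narrow separation between closely spaced replicates. The level went from 82.0 ± 0.0358 to 91.5 ± 1.06 CPM (SD, n = 2 per condition), 1.12-fold higher (log2 fold change 0.16, SE 0.0483, 95% interval 0.06 to 0.25, adjusted p = 0.00416). The call of ADAMTS9 was lost with DESeq2 (adjusted p = 0.119), without RUNX3 KO replicate 1 (0.0650) and without RUNX3 KO replicate 2 (0.0916), and over all alternatives the adjusted p ran from 0.00416 to 0.119. A further limit is that 174 exon bases of ADAMTS9 are shared with the antisense gene ADAMTS9-AS1, which had 0 counts in all 4 libraries, and whether the counting used strand is not given in the sources used here.

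All 3 procollagen N-proteinases fell, with a median log2 fold change of -0.72. ADAMTS2, which processes procollagens I, II and III and whose loss causes a fragile-skin form of Ehlers-Danlos syndrome, had 245 and 226 counts in wt cells and 149 and 140 in RUNX3 KO cells. It fell 1.64-fold, from 19.9 ± 1.13 to 12.1 ± 0.692 CPM (SD, n = 2 per condition; log2 fold change -0.72, SE 0.109, 95% interval -0.93 to -0.50, adjusted p = 2.73e-08). ADAMTS14, a close relative of ADAMTS2, had 122 and 126 counts in wt cells and 57 and 67 in RUNX3 KO cells. The RUNX3 KO libraries held fewer counts than either wt library by a wide margin. This was a 2.02-fold fall, from 10.5 ± 0.242 to 5.20 ± 0.525 CPM (SD, n = 2 per condition; log2 fold change -1.01, SE 0.157, 95% interval -1.32 to -0.70, adjusted p = 4.17e-08). ADAMTS3, which also activates the lymphatic growth factor VEGFC, had 321 counts in each wt library and 274 and 256 in RUNX3 KO cells. It had the smallest fall of the class, 1.22-fold, from 27.2 ± 0.00798 to 22.2 ± 1.36 CPM (SD, n = 2 per condition; log2 fold change -0.29, SE 0.0879, 95% interval -0.46 to -0.12, adjusted p = 0.00406). The call of ADAMTS3 was lost with DESeq2 (adjusted p = 0.128), without RUNX3 KO replicate 1 (0.0513) and without RUNX3 KO replicate 2 (0.107), over a range of 0.00219 to 0.128, and ADAMTS3 shares 70 exon bases with an antisense gene. The 3 falls differed in size, and the intervals of ADAMTS14 and ADAMTS3 do not overlap, although no test of the difference between genes was run.

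The stretches upstream of the 3 procollagen N-proteinase genes are shown as those of the class whose members all fell. A RUNX motif occurs in 1 of them. The sequences are from RefSeq on GRCh38.p14, which is not the build of the count tables, and run 5′ to 3′ on the strand of the gene from 250 to 51 bases before the annotated start. They lie at chr5:179345512-179345711 (ADAMTS2, minus strand), chr10:70672256-70672455 (ADAMTS14, plus strand) and chr4:72569272-72569471 (ADAMTS3, minus strand). Capitals mark the motif TGCGGT, which stands on the opposite strand and is therefore read here as its reverse complement.
ADAMTS2: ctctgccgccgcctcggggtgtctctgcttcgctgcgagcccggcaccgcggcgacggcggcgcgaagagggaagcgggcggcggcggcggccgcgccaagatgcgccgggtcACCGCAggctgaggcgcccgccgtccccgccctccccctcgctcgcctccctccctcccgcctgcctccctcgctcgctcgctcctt
ADAMTS14: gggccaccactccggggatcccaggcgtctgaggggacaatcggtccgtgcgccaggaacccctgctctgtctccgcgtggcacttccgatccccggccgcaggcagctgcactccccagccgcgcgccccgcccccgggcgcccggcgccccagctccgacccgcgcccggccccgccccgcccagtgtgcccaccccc
ADAMTS3: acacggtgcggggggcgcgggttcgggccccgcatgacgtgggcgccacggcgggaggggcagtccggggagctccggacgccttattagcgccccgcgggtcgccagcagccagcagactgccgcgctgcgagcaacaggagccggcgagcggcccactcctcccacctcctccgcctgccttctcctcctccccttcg

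The motif letters TGTGGT and TGCGGT were searched on both strands in the 250 bases before each start, and the 2 motifs do not overlap each other in the match found. RefSeq windows matched 6 of the 10 members by symbol (ADAMTS2, ADAMTS3, ADAMTS10, ADAMTS12, ADAMTS14 and ADAMTS19), with 7 windows in all because ADAMTS10 had 2. No aggrecanase had a window. ADAMTS2 held the TGCGGT match, at positions -137 to -132 counted from the start, and the other 6 windows held neither set of letters. Of all 35116 windows of the same length, 3855 held TGTGGT, 2052 (5.8%) held TGCGGT and 5727 (16.3%) held either. The member windows were rich in G and C, at 63.2% to 80.4% against a median of 58.0% over all windows, and held 13 to 40 CpG dinucleotides against a median of 11. A match is a description of letters and not a binding site, and the search covers only these windows. In the study's ChIP-seq most RUNX3 binding sites were distal to gene starts.

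The 3 other members moved in both directions, with 1 lower and 2 higher. ADAMTS10, which binds fibrillin microfibrils and is mutated in Weill-Marchesani syndrome, had 145 and 164 counts in wt cells and 55 and 53 in RUNX3 KO cells. Both knockout values were lower by a margin that far exceeded the gap between replicates. It fell 2.88-fold, from 13.1 ± 1.14 to 4.53 ± 0.178 CPM (SD, n = 2 per condition), with a log2 fold change of -1.53 (SE 0.154, 95% interval -1.83 to -1.23, adjusted p = 9.70e-15). ADAMTS12, known to cut cartilage oligomeric matrix protein (COMP), moved the other way, with 29 and 21 counts in wt cells and 113 in each RUNX3 KO library. It rose 4.46-fold, from 2.12 ± 0.478 to 9.48 ± 0.123 CPM (SD, n = 2 per condition), with a log2 fold change of 2.16 (SE 0.201, 95% interval 1.76 to 2.55, adjusted p = 2.64e-16), and ranked 73 among the rises of all genes tested. ADAMTS19, an orphan protease known for its part in heart valve development, had 383 and 392 counts in wt cells and 645 and 710 in RUNX3 KO cells. It rose 1.73-fold, from 32.8 ± 0.548 to 56.8 ± 3.12 CPM (SD, n = 2 per condition; log2 fold change 0.79, SE 0.0679, 95% interval 0.66 to 0.93, adjusted p = 4.49e-18). Of its exon bases, 58 and 226 are shared with 2 antisense genes that were not matched to a row of the count tables, so strand could matter for this value as well.

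The upstream stretches of ADAMTS10 and ADAMTS12 are shown as those of the pair in this class with the strongest opposite changes. For ADAMTS10 both annotated starts are given, at chr19:8610766-8610965 and chr19:8592267-8592466, and for ADAMTS12 the stretch is chr5:33892041-33892240, all on the minus strand of GRCh38.p14 and cut at the same distances as above. No letters are in capitals because neither motif occurs in them.
ADAMTS10, first start: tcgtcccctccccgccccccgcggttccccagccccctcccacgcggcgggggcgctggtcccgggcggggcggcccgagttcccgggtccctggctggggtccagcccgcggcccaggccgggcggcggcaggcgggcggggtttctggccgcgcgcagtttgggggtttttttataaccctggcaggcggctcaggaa
ADAMTS10, second start: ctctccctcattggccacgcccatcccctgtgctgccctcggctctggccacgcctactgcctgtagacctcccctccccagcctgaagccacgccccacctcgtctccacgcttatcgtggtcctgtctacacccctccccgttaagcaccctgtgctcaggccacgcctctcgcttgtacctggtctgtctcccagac
ADAMTS12: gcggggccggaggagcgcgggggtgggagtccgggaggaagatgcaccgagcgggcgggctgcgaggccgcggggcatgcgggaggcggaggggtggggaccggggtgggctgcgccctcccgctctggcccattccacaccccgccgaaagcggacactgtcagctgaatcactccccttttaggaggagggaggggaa

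**Figure D2:**
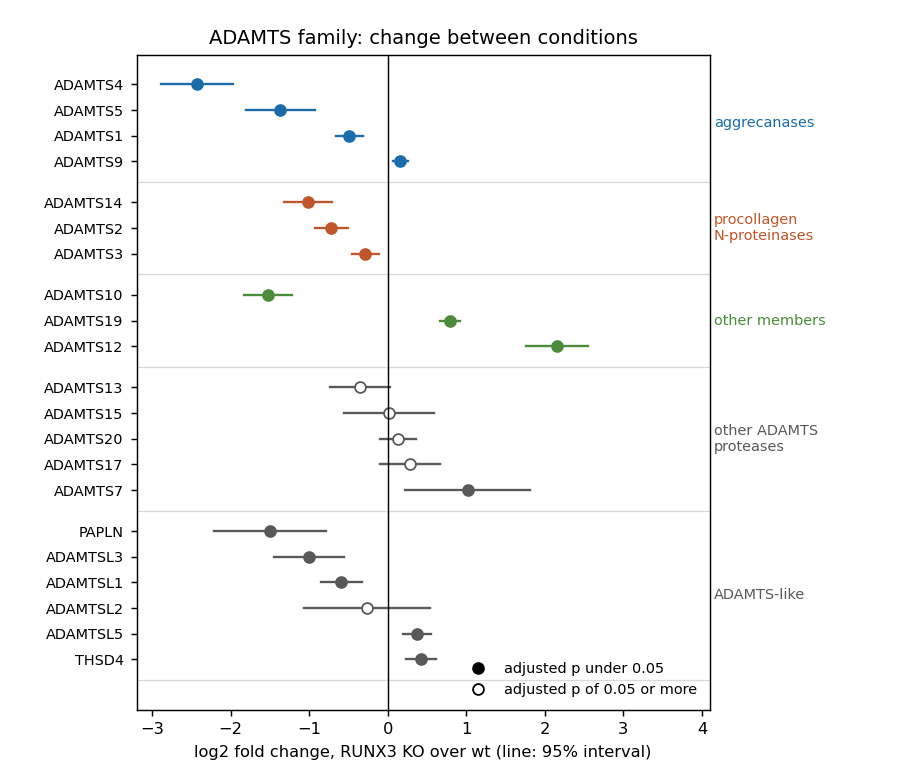
Log2 fold change of RUNX3 KO over wt with its 95% interval for the 10 members by substrate class, the 5 other ADAMTS proteases and the 6 ADAMTS-like genes that passed the filter, with filled points for an adjusted p under 0.05. The aggrecanases run from -2.43 to 0.16, the procollagen N-proteinases lie left of 0, and the other members span -1.53 to 2.16.

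In the plot of fold change by level, the low members ADAMTS4, ADAMTS5, ADAMTS10, ADAMTS12 and ADAMTS14 had the larger changes, whereas ADAMTS9, the member with the most counts, changed least. Low genes scatter more widely in that plot as a whole, and the standard errors of the log2 fold changes of the members ran from 0.0483 for ADAMTS9 to 0.237 for ADAMTS4.

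**Figure D3:**
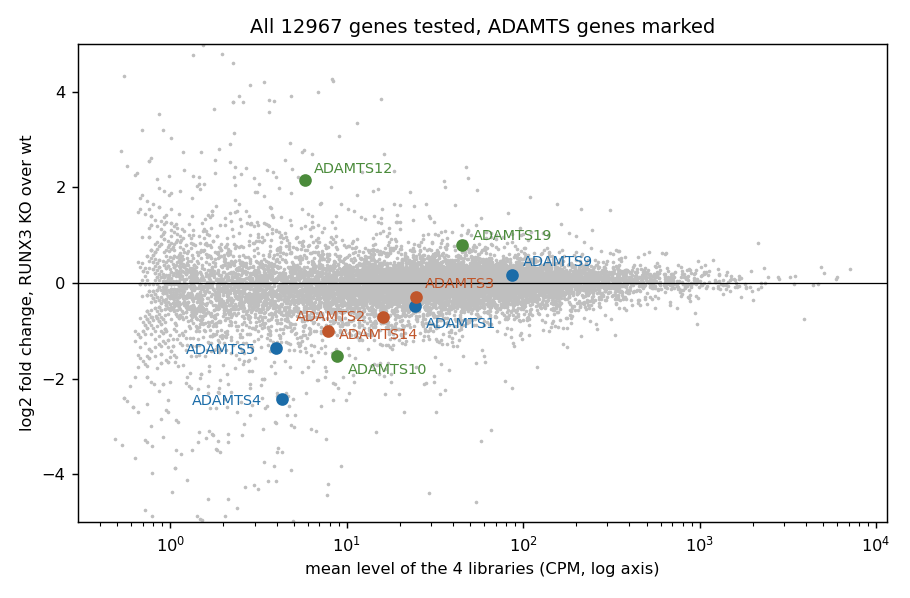
Log2 fold change of RUNX3 KO over wt (y axis, cut at 5 in each direction, which leaves out 39 genes) against the mean level of the 4 libraries (x axis, CPM, log scale) for the 12967 genes tested, with the 10 ADAMTS genes coloured by substrate class. ADAMTS4 and ADAMTS12 stand at -2.43 and 2.16, and ADAMTS9 lies near 0 at the highest level of the 10.

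To compare levels between genes, CPM was divided by the length of all annotated exons, which gives RPKM. In wt cells ADAMTS9 stood highest, at 7.68 ± 0.00335 RPKM (SD, n = 2), followed by ADAMTS19 at 6.08 ± 0.102, ADAMTS1 at 3.92 ± 0.0644 and ADAMTS3 at 3.88 ± 0.00114. ADAMTS10 (2.29 ± 0.20), ADAMTS2 (2.22 ± 0.126) and ADAMTS14 (1.89 ± 0.0436) came next in wt RPKM, and ADAMTS4 (0.704 ± 0.0234), ADAMTS5 (0.589 ± 0.0492) and ADAMTS12 (0.220 ± 0.0498) were lowest. The libraries of neighbours in this order did not overlap, except for ADAMTS1 and ADAMTS3 and for ADAMTS10 and ADAMTS2. In RUNX3 KO cells ADAMTS19 moved to the top at 10.5 ± 0.578 RPKM (SD, n = 2), above ADAMTS9 at 8.57 ± 0.0995. ADAMTS12 went from last to sixth place, at 0.987 ± 0.0129, with libraries that overlapped those of ADAMTS14 at 0.934 ± 0.0944. ADAMTS4 became the lowest of the 10, at 0.130 ± 0.0132, below ADAMTS5 at 0.228 ± 0.0333, and the 2 principal aggrecanases were thus the least abundant members after the knockout. The place of ADAMTS19 above ADAMTS9 depends on the length used, since with the length of the MANE Select transcript, an addition made after seeing the data, ADAMTS9 stood at 12.0 and ADAMTS19 at 10.9 RPKM in RUNX3 KO cells. By that length ADAMTS1 (3.93) also stood above ADAMTS3 (3.56), and ADAMTS10 (1.07) above ADAMTS14 (0.935), in RUNX3 KO cells.

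Summed over the 10 members, RNA per exon length was nearly the same in both conditions while its make-up differed. The sum was 29.3 and 29.6 RPKM in wt cells against 29.3 and 29.7 in RUNX3 KO cells. Procollagen N-proteinases went from 8.04 and 7.93 RPKM in wt cells to 5.58 and 5.34 in RUNX3 KO cells, and from 27.4% and 26.8% of the sum to 19.1% and 18.0%. The other members went from 8.42 and 8.77 to 11.9 and 12.7 RPKM, and from 28.7% and 29.6% of the sum to 40.8% and 42.8%, of which ADAMTS19 alone made up 34.6% and 36.9%. Aggrecanases moved least, from 12.9 RPKM in each wt library to 11.8 and 11.7, or from 43.9% and 43.6% to 40.2% and 39.3%. The small change of that sum hides the falls of ADAMTS4 and ADAMTS5, because ADAMTS9 supplied 26.2% and 25.9% of the summed RPKM in wt cells and 29.0% and 29.1% in RUNX3 KO cells. ADAMTS4 dropped from 2.34% and 2.44% of the sum to 0.475% and 0.406%, and ADAMTS12 went from 0.871% and 0.625% to 3.40% and 3.29%. These sums are descriptions without a test, and shares of RNA are not shares of enzyme activity.

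**Figure D4:**
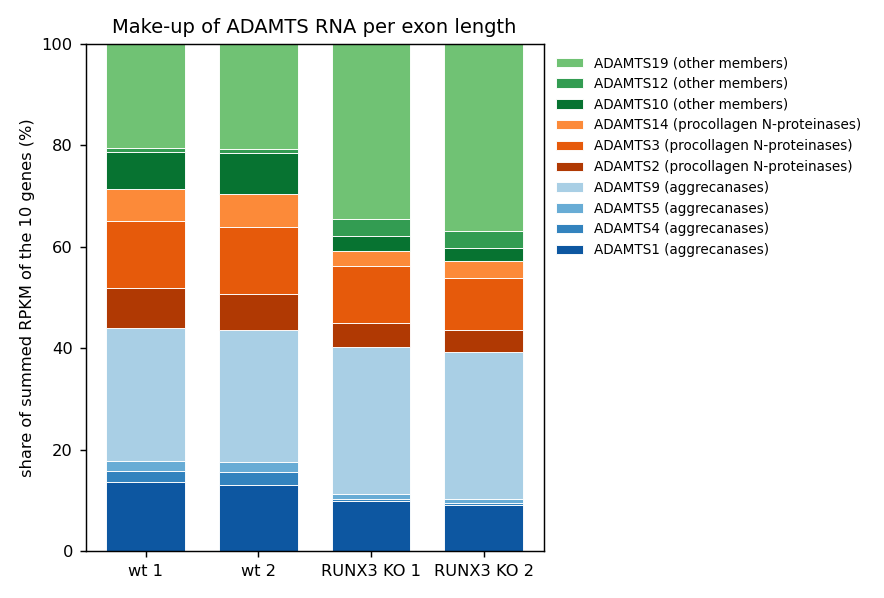
Share of each member in the summed RPKM of the 10 genes (y axis, %) in each of the 4 libraries, coloured in blue for aggrecanases, orange for procollagen N-proteinases and green for the other members. ADAMTS19 grows from 20.5% and 20.8% in wt cells to 34.6% and 36.9% in RUNX3 KO cells, and the procollagen N-proteinases shrink from 27.4% and 26.8% to 19.1% and 18.0%.

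The genes lie apart in the genome, with 1 exception. On hg19, in the GENCODE annotation lifted to GRCh37, ADAMTS1 (chr21:28208074-28217728) and ADAMTS5 (chr21:28290241-28339407) are both on the minus strand and are next to each other among the genes tested. Of the 36 genes tested nearest to ADAMTS1, 5 fell as much as it did, and their median log2 fold change was 0.02, and none of the 37 nearest to ADAMTS5 fell as much (median 0.01). ADAMTS4 (chr1:161154092-161168844, minus strand) stood alone as well, with 40 neighbours at a median of -0.02 and none with a fall as large. ADAMTS10 (chr19:8645124-8675620, minus strand) lay where 33 of its 40 nearest tested genes were lower, at a median of -0.31, but none fell as much. ADAMTS12 (chr5:33523640-33892124, minus strand) lay where 9 of 40 were lower, at a median of 0.31, and 2 rose as much. ADAMTS19 (chr5:128795974-129074376, plus strand) had 11 of 40 neighbours lower, a median of 0.11 and 5 that rose as much, among them the adjacent ISOC1 at 1.01 (adjusted p = 1.51e-38). The fibrillin gene FBN2 (chr5:127593601-127994878), given below with the partners of ADAMTS10, lies before ADAMTS19 on that chromosome and was at 1.53. ADAMTS9 (chr3:64501330-64673676, minus strand), ADAMTS2 (chr5:178537854-178772462, minus strand), ADAMTS3 (chr4:73146686-73434938, minus strand) and ADAMTS14 (chr10:72432262-72522197, plus strand) had 40 neighbours each, with medians from -0.02 to 0.05. As large a change in the same direction was seen in 10 neighbours of ADAMTS9, 7 of ADAMTS3, and 1 each of ADAMTS2 and ADAMTS14. Next to ADAMTS3, NPFFR2 was at -0.36 (adjusted p = 0.000850), a larger fall than that of ADAMTS3 itself. The neighbourhoods of ADAMTS10, ADAMTS12 and ADAMTS19 thus leaned in the direction of the gene itself, and the part of this in their changes was not tested.

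Among the rest of the family, the 9 other ADAMTS proteases had few counts or little change. ADAMTS20, a versican-cleaving enzyme known from pigment cell migration, had 153 and 161 counts in wt cells and 171 and 176 in RUNX3 KO cells (log2 fold change 0.13, adjusted p = 0.360). ADAMTS13, which cleaves von Willebrand factor, had 58 and 65 counts against 50 and 47 (-0.36, adjusted p = 0.130), ADAMTS17 had 54 and 50 against 72 and 56 (0.29, adjusted p = 0.224) and ADAMTS15 had 20 and 28 against 22 and 27 (0.02, adjusted p = 0.970). ADAMTS7 was called higher on 5 and 12 against 18 and 17 counts (1.02, SE 0.405, adjusted p = 0.0300). ADAMTS7 has near-identical pseudogene copies, which makes its counts uncertain, and it lost its call in 5 alternatives, with adjusted p = 0.138 without a filter, 0.308 with DESeq2, 0.415 without wt replicate 1, 0.281 without RUNX3 KO replicate 1 and 0.25 without RUNX3 KO replicate 2. Its log2 fold change was 0.53 without wt replicate 1 and 1.77 without wt replicate 2. ADAMTS6 and ADAMTS8 had at most 5 counts in any library and ADAMTS16 and ADAMTS18 had 0 in all. Over all 19 ADAMTS proteases, 15 passed the filter, of which 7 were lower, 4 higher and 4 not called.

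ADAMTS-like genes encode relatives without a protease domain that bind matrix, several of them at fibrillin microfibrils. Of 6 that passed the filter, 3 fell, 2 rose and 1 did not pass the test, where 48.9% of all genes tested were called. ADAMTSL3 had 56 and 59 counts in wt cells and 25 and 33 in RUNX3 KO cells (log2 fold change -0.998, adjusted p = 0.000127), ADAMTSL1 had 166 and 148 against 117 and 93 (-0.59, adjusted p = 9.17e-05) and PAPLN had 28 and 23 against 6 and 12 (-1.50, adjusted p = 0.000309). ADAMTSL5 had 264 and 223 against 313 and 325 (0.38, adjusted p = 0.000305) and THSD4, also named ADAMTSL6, had 205 and 197 against 265 and 281 (0.43, adjusted p = 0.000123). ADAMTSL2 had 12 and 13 against 9 and 12 (-0.26, adjusted p = 0.640), and ADAMTSL4 had at most 4 counts in any library and was not tested. Each of the 5 calls was lost in at least 1 leave-one-out fit, namely without RUNX3 KO replicate 1 for ADAMTSL3 (adjusted p = 0.0545), PAPLN (0.0857) and ADAMTSL5 (0.112), and without RUNX3 KO replicate 2 for ADAMTSL1 (0.109), ADAMTSL5 (0.142) and THSD4 (0.0545). With DESeq2, PAPLN had an adjusted p of 0.0540.

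Transcripts of the proteoglycan core proteins cut by aggrecanases were scarce, whereas those of 2 link proteins were not. Aggrecan (ACAN) had 0 counts in all 4 libraries, VCAN had at most 4, and BCAN, NCAN, HAPLN2 and HAPLN4 had at most 5, so 2 of 8 listed genes were tested. Of these, HAPLN1, the cartilage link protein that ties aggrecan and versican to hyaluronan, fell from 1722 and 1618 counts to 360 and 371 (log2 fold change -2.20, adjusted p = 2.37e-54). HAPLN3, another link protein, rose from 152 and 139 to 251 and 240 counts (0.74, adjusted p = 7.79e-09). Transcripts of ADAMTS1, ADAMTS4, ADAMTS5 and ADAMTS9 were thus counted in libraries with next to none from ACAN or VCAN.

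Transcripts of the fibrillar procollagens, the class that procollagen N-proteinases act on, ranged from abundant to scarce. Of 8 fibrillar procollagen genes tested, 5 fell and 3 rose, where 24.4% of all genes tested were lower and 24.5% higher. COL1A1, the main chain of collagen I, fell by 0.87 on the log2 scale from 15098 and 14293 counts to 8010 and 8263 (adjusted p = 1.42e-51). COL1A2, its partner chain, had 1973 and 2030 counts in wt cells but 1 and 5 in RUNX3 KO cells. COL5A1 fell by 1.35, COL11A2 by 0.61 and COL3A1 by 0.30 on the log2 scale, whereas COL5A3, COL5A2 and COL11A1 rose by 1.56, 0.64 and 0.53. COL2A1, with at most 10 counts, was not tested, and COL11A2 lost its call with DESeq2 (adjusted p = 0.203), without wt replicate 2 (0.0944), without RUNX3 KO replicate 1 (0.0774) and without RUNX3 KO replicate 2 (0.127). VEGFC, the growth factor activated by ADAMTS3, had 0 counts in all libraries, and its cofactor CCBE1 and receptor FLT4 had at most 3.

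At the other end of the procollagens, where BMP1 and tolloid-like proteases remove the carboxy-terminal propeptide, changes went both ways among 4 genes tested. TLL1 rose from 126 and 131 counts to 270 and 303 (log2 fold change 1.14, adjusted p = 4.42e-16) and TLL2 fell from 32 and 22 to 13 and 10 (-1.24, adjusted p = 0.00144). BMP1 had 554 and 618 counts against 534 and 511 (-0.18, adjusted p = 0.0195), and PCOLCE, its enhancer, 5645 and 5591 against 5589 and 5954 (0.03, adjusted p = 0.450). Without wt replicate 2 BMP1 was at -0.10 (adjusted p = 0.344) and without wt replicate 1 TLL2 was at -0.94 (0.0862), and both also lost their call when either RUNX3 KO library was left out, at adjusted p-values from 0.0933 to 0.371. With DESeq2 the adjusted p was 0.234 for BMP1 and 0.0984 for TLL2, and without a filter it was 0.141 for BMP1.

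For the other members, the listed partners were fibrillins, to which ADAMTS10 binds, and COMP, a substrate of ADAMTS12. All 3 fibrillins rose while ADAMTS10 fell. FBN2 went from 1901 and 1892 counts to 5666 and 5392 (log2 fold change 1.53, adjusted p = 3.86e-60), FBN1 from 55 and 39 to 103 and 110 (1.16, adjusted p = 2.42e-08) and FBN3 from 42 and 46 to 104 and 112 (1.28, adjusted p = 1.42e-09). Without RUNX3 KO replicate 2, FBN1 had an adjusted p of 0.0566. COMP fell from 91 and 85 counts to 58 and 66 (-0.52, adjusted p = 0.00833) while ADAMTS12 rose, but its call was lost without wt replicate 1 (0.0622), RUNX3 KO replicate 1 (0.110) or RUNX3 KO replicate 2 (0.0718) and with DESeq2 (0.174).

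Of 8 genes listed for inhibition or clearance, 5 were tested, and TIMP4, A2M and RECK did not pass the filter. Of those tested, 4 were lower and none higher, where 24.4% of all genes tested were lower. TIMP3, the tissue inhibitor that acts on ADAMTS4 and ADAMTS5, fell from 1191 and 1223 counts to 982 and 1039 (log2 fold change -0.27, adjusted p = 8.11e-07), alongside TIMP1 (-0.38) and TIMP2 (-0.26). LRP1, the endocytic receptor that clears ADAMTS4 and ADAMTS5, fell from 1415 and 1315 to 824 and 884 counts (-0.69, adjusted p = 7.33e-23). SDC4, a heparan sulfate proteoglycan, was at 0.08 (adjusted p = 0.414). Among 6 genes of maturation, the convertases FURIN and PCSK6 rose by 0.52 (adjusted p = 2.62e-07) and 0.61 (3.39e-15) and PCSK5 fell from 58 and 51 counts to 13 and 11 (-2.18, adjusted p = 1.84e-10). PCSK7 and the glycosyltransferases POFUT2 and B3GALTL, which modify thrombospondin repeats, were at -0.09, 0.11 and 0.01 and did not pass the test.

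**Figure D5:**
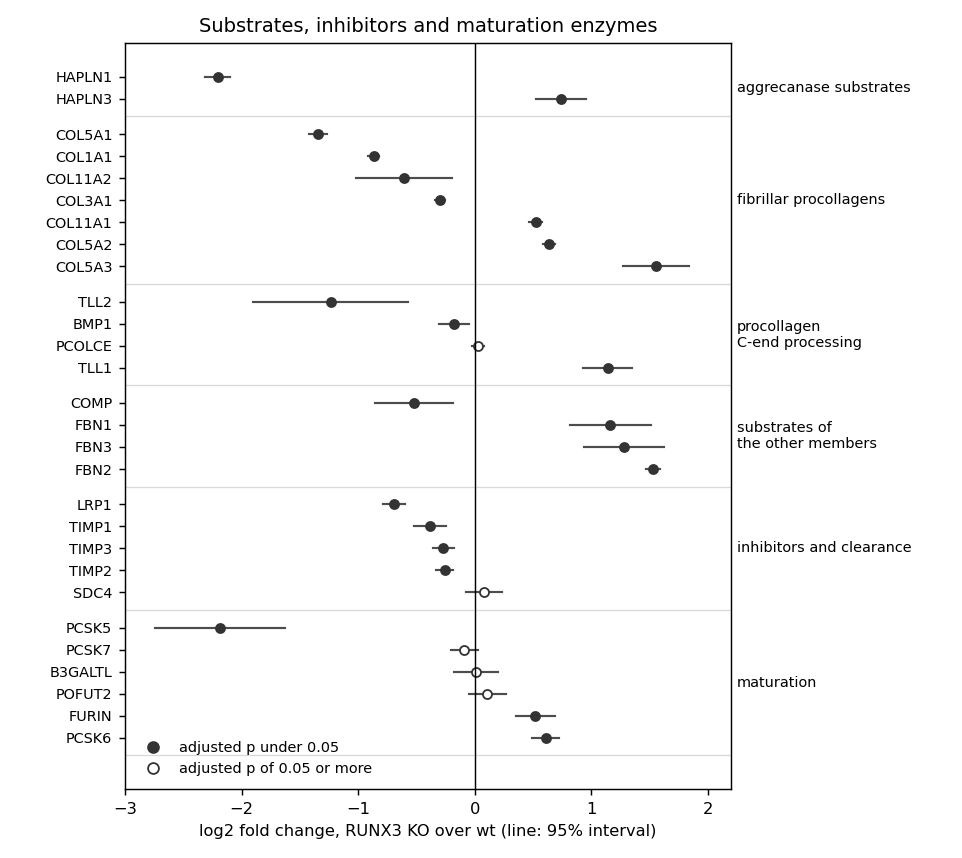
Log2 fold change of RUNX3 KO over wt with its 95% interval for substrates, inhibitors and maturation enzymes of the ADAMTS proteases that passed the filter, with filled points for an adjusted p under 0.05. COL1A2, with 1 and 5 counts left in RUNX3 KO cells, is not drawn, HAPLN1 lies at -2.20 and the 3 fibrillins lie between 1.16 and 1.53.

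The cells were also checked against markers of their labelled type. Among the epithelial markers, EPCAM had 1 count in each wt library and 0 in each RUNX3 KO library, KRT19 had 0 in all, and KRT7 and CLDN4 had at most 5. KRT18 had 0 counts in wt cells and 2 and 14 in RUNX3 KO cells. CDH1 rose from 15 and 21 counts to 30 and 32 (log2 fold change 0.77, adjusted p = 0.0238), but its call was lost without a filter (0.0642), with DESeq2 (0.273), without wt replicate 1 (0.238), without RUNX3 KO replicate 1 (0.135) and without RUNX3 KO replicate 2 (0.172). MUC1 had 85 to 100 counts, and KRT8 rose from 19 and 11 counts to 72 and 81 (log2 fold change 2.33, adjusted p = 1.90e-13). Of the 6 fibroblast markers (DCN, LUM, PDGFRA, COL3A1, FAP and THY1), 5 fell, where 24.4% of all genes tested were lower. COL3A1 is also counted among the fibrillar procollagens above. DCN went from 155 ± 1.33 to 119 ± 0.597 CPM (SD, n = 2 per condition) and PDGFRA from 27.6 ± 0.248 to 5.50 ± 0.487 CPM (log2 fold change -2.33, adjusted p = 7.79e-31), and FAP, with 38 to 40 counts, was at -0.03 (adjusted p = 0.923). None of 5 endothelial markers passed the filter, with PECAM1, CDH5 and KDR at 0 in all libraries. Of the leukocyte markers, CD3E was at 0 in all libraries and PTPRC had at most 5 counts. The part of the change in fibroblast markers in the falls of ADAMTS genes was not tested.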

How the data were processed

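Poly(A) RNA of HGC-27 cells was sequenced in 4 libraries, and the authors deposited raw counts, 1 row for each symbol and not normalized. The study's methods name STAR and featureCounts on hg19, whereas the submitters' processing notes name bcl2fastq, HISAT2 2.1.0 and HTSeq, and the tables close with 5 rows in the form of htseq-count. The labels and the methods also name different media and extraction kits. The rows for reads without a gene took 25.9% to 28.1% of each library and were left out. Analysis used edgeR 4.0.16 in R 4.3.3. The filter filterByExpr (minimum count 10, minimum total 15) and TMM scaling were followed by glmQLFit and glmQLFTest (prior count 0.125) with no replicate block, and by Benjamini-Hochberg adjustment over 12967 genes. Dispersion was 0.000211 in common over genes (biological coefficient of variation 1.45%). The SE was taken as the size of a log2 change over the root of its F value, and 95% intervals are 1.96 SE. An exact permutation test of 2 against 2 libraries cannot give a p below 0.333. Tested on simulated data for this comparison, the steps recovered 188 of 198 changed genes (94.9%) among 12910, with 3 false calls. Recovery was not split by size of change. For changes as small as those of ADAMTS3 and ADAMTS9 it was not tested separately.

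Exon lengths and positions came from GENCODE on GRCh37, which may not be the authors' annotation, and 21758 of 25559 symbols matched, 2151 of them through a synonym. RPKM was CPM per kilobase of all exons of a gene. Neighbours were the nearest 20 tested genes on each side. Alternatives were DESeq2 1.42.0 and limma-voom (limma 3.58.1) as tests, 3 other scalings, 2 other filters, a prior count of 2, the fold criteria of the methods, a replicate block and each library left out. Members and gene lists were chosen with earlier results of these data known. The genes named were the 10 members, every other ADAMTS or ADAMTS-like gene that passed the filter, and tested genes of the listed partners. Listed genes that did not pass the filter, cell type markers and the neighbours ISOC1 and NPFFR2 were named after their values were seen. A further gene of the marker lists is not reported here.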

Additional observations from a re-analysis of the deposited data

How the results depend on the processing

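The directions of all 10 members held under all alternatives, and 8 of them kept an adjusted p under 0.05 in each. The exceptions were ADAMTS3 and ADAMTS9, whose calls were lost with DESeq2 and without either RUNX3 KO library. With a 2-fold change or more and p of 0.05 or less before adjustment, 4 members were lower and 1 was higher. With each library left out in turn, 6 to 7 members were lower and 2 to 3 higher, where the group left with 1 library was assumed to vary like the other. The log2 ratio of summed RPKM then ran from -0.14 to -0.13 for aggrecanases, from -0.58 to -0.52 for procollagen N-proteinases, from 0.47 to 0.56 for the other members and from -0.0086 to 0.013 for all 10. For aggrecanases that ratio was -0.14 with TMM and -0.16 with library size alone or the upper quartile, and -0.11 with MANE Select length, a choice made after seeing the data. For all 10 members it was 0.0012 with TMM, -0.019 with library size alone, -0.020 with the upper quartile and -0.030 with MANE Select length, which gave 0.44 for the other members in place of 0.52.

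Over all genes tested, 3158 were lower and 3183 higher, against 1863 and 1829 with DESeq2, 1531 and 1483 without RUNX3 KO replicate 1, and 1378 and 1285 without RUNX3 KO replicate 2. The cause of these differences was not tested. The median of all genes moved by less than 0.1 between scalings. The replicate numbers mark no shared culture or day in the labels, and same-numbered libraries did not deviate together (r = -0.00366 over 10869 genes, which are not independent). With the replicate number as a block, 7 members were lower and 3 higher, and no call changed. For RUNX3 and all listed genes that passed the filter, 730 alternative values kept their side of the threshold, 45 lost a call and none was reversed. The neighbours ISOC1 and NPFFR2 are not among them. Depth limits ADAMTS4, ADAMTS5 and ADAMTS12, which had under 30 counts in some libraries.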
